A study of Homo sapiens with 4 samples.

Results

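Cholesterol and fatty acid synthesis was followed through 43 genes in U87TR-Da cells. The genes were chosen by name, from the enzymes of both pathways and the proteins that control or export sterols. Earlier results of these data were known when they were chosen. The array annotation gave 38 of them a probe set that names no other gene, among 19775 genes in all. CYP51A1 and FADS1 have probe sets shared with another gene, and FDFT1, NR1H2 and ACSL3 were not named here, so these 5 genes carry no value. U87TR-Da derives from the human glioblastoma line U87MG and carries DACH1, a nuclear repressor of transcription, under doxycycline control.

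There were 4 arrays, 1 for each condition: DACH1-silenced and DACH1-induced cells in DMEM with 10% FBS, and DACH1-silenced and DACH1-induced cells in Neurobasal without serum, supplemented with the N-2 and B-27 mixes and the growth factors EGF and bFGF. The labels give all 4 cultures the same exposure to 1 µg/mL doxycycline for 72 h and do not say how silencing was kept. Whether the cells are 1 clone is not given in the sources used here. No condition was replicated, so a pair of arrays allows no test, and precision is bounded by how few arrays there are. The wording "labelled serum" and "labelled serum-free" is used for the media, since serum response genes moved both ways. Of 10 in the limma fit, 5 rose (50%) and 3 fell (30%) labelled serum-free, against 15.4% and 12.7% of all genes. Why they moved so was not tested.

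Cells make cholesterol from acetyl-CoA through mevalonate and squalene, and fatty acids from acetyl-CoA through malonyl-CoA. The transcription factors SREBP-1 and SREBP-2, encoded by SREBF1 and SREBF2, switch on both sets of enzymes when membrane sterol is low. When sterol is high, INSIG proteins hold SCAP and its SREBP cargo in the endoplasmic reticulum, and oxysterols such as 25-hydroxycholesterol strengthen that hold. Oxysterols also activate the LXR receptors, which raise sterol export. Glioblastoma cells are known for their dependence on SREBP-driven lipid synthesis and on LXR-controlled cholesterol balance.

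Several facts of the whole series bear on the values. DACH1 itself read 126 (silenced) and 4431 (induced) labelled serum, then 32.5 and 875.1 in the other medium. Median signals of the arrays lay between 15.7 and 19.3. Of 12 named glioma and astrocyte markers 9 reached the median signal of 17.2 on at least 1 array. Of the same list, GFAP, S100B and AQP4 were under the floor of 10.9 on every array, while VIM, CD44 and GJA1 read between 2610.7 and 9277.8. These genes and those named next were picked with their values known. Of 6 named leukocyte markers 1 reached the median signal of 17.2 on any array, with a summed signal from 19.7 to 52.1, and PTPRC and CD14 stayed at or under 11.1. Of endothelial and epithelial markers 2 of 6 did (sums 64.4 to 85.4), and of adipocyte and hepatocyte markers 3 of 8 (sums 105.6 to 154). In the arrays labelled serum-free, mitosis genes rose in 10 of 10 cases by limma, against 15.4% of all genes. The part of these shifts in the results below was not tested.

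**Figure D1:**
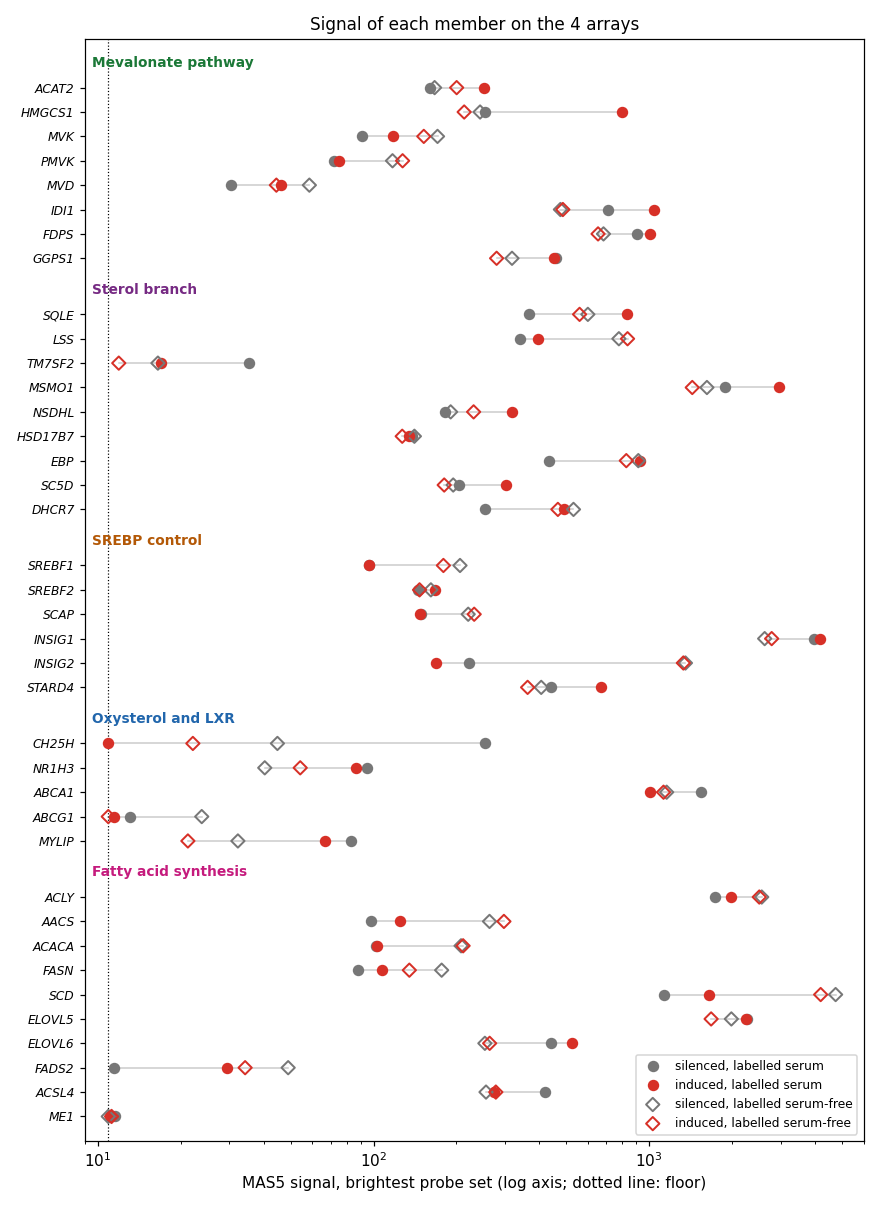
MAS5 signal (horizontal log axis) of the brightest probe set of each of the 38 measured members on the 4 arrays, grouped by role. Filled circles are arrays labelled serum and open diamonds arrays labelled serum-free, grey for silenced and red for induced DACH1; values under the floor of 10.9 (dotted line) are drawn at it. HMGCS1 stands at 796 on the induced array labelled serum and between 213.3 and 253.2 on the other 3.

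The first comparison asked what DACH1 induction did in the medium labelled serum. Genes of sterol synthesis were higher on the induced array: of 17 measured genes from ACAT2 to DHCR7, 14 were above 0, with a median log2 difference of 0.57. Over all 12190 genes compared, the median was 0.01 and 50.7% were above 0. Counted at 2-fold, 4 of 36 members were higher (11.1%), against 2.91% of all genes. The 2 members at least 2-fold lower, CH25H and TM7SF2, stood against 4.77% of all genes. A gene was compared when 1 array of a pair reached 17.2, and both reached it only on the silenced array. FADS2, among the higher, reached it only on the induced array. Housekeeping genes had a median of 0.25 in this pair, with 8 of 10 above 0, and the 10 mitosis genes a median of 0.34.

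In the mevalonate pathway, HMGCS1, which condenses acetyl-CoA and acetoacetyl-CoA into HMG-CoA, read 253.2 in silenced and 796 in induced cells labelled serum. On the arrays labelled serum-free it read 243.6 and 213.3. On this brightest probe set the induced array labelled serum stood apart, at 3.14-fold the silenced one, and the other 3 lay close together. A second probe set of HMGCS1 gave 223.9 and 610.1 labelled serum and 153.8 and 144.2 labelled serum-free, so both probe sets gave the same order of states in each medium.

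On the brightest probe sets, the rest of this pathway showed smaller differences of the same sign, with 1 exception. IDI1, which isomerises isopentenyl pyrophosphate, read 710.5 and 1038.6 labelled serum (1.46-fold higher) and 476.7 and 486.5 labelled serum-free. This probe set and the next brightest (1.36-fold) are of the _x_at kind that can bind related transcripts. The dimmer ones of IDI1 gave log2 differences of -0.11 and -0.24 labelled serum, so its value is uncertain. ACAT2, the cytosolic acetoacetyl-CoA thiolase, was 1.57-fold and MVD, the decarboxylase, 1.51-fold higher with DACH1 labelled serum. MVK and PMVK, the kinases of mevalonate and its phosphate, were 1.3-fold and 1.05-fold higher (the dimmer probe sets of MVK gave log2 differences of 1.60 and -0.10), and FDPS, which makes farnesyl pyrophosphate, 1.12-fold. GGPS1, which makes the geranylgeranyl donor for protein prenylation, was the exception, at 459.6 and 451.1.

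In the sterol branch, SQLE, the squalene epoxidase and a rate-controlling oxygenase, read 367.6 in silenced and 834 in induced cells labelled serum, and 599.6 and 559.5 labelled serum-free. Its 2.27-fold difference was matched by 1.94-fold and 2.08-fold on the next brightest probe sets. EBP, the sterol isomerase, read 433.8 and 930.7 labelled serum (2.15-fold), and 914 and 826.7 labelled serum-free. A second EBP probe set gave 2.08-fold, and its dimmer ones 1.38-fold higher and 1.23-fold lower. DHCR7, the last reductase of the pathway, read 254.4 and 492 labelled serum (1.93-fold) and 531.7 and 466.7 labelled serum-free. A second DHCR7 probe set read 178.2 and 428.8 labelled serum. For SQLE, EBP and DHCR7 the silenced array labelled serum was the lowest of the 4.

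MSMO1, which removes methyl groups at C4, read 1882.8 and 2953.7 labelled serum against 1621.6 and 1434.6 labelled serum-free. NSDHL, which acts next to MSMO1, read 181.8 and 317.1, then 190.5 and 230.8. SC5D, the sterol desaturase, read 203.6 and 302.5, then 194.6 and 180.5. These 3 genes were highest on the induced array labelled serum, by 1.57-fold, 1.74-fold and 1.49-fold over the silenced one. LSS, which cyclises squalene epoxide to lanosterol, was 1.16-fold higher, and HSD17B7 read 138.4 and 134.2. HSD17B7 has 1 probe set, of the _x_at kind that can bind related transcripts, so its value is uncertain. TM7SF2, a sterol reductase, went the other way, with 35.2 in silenced and 17 in induced cells labelled serum (2.07-fold lower).

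Most of the measured sterol synthesis genes were higher on the induced than on the silenced array labelled serum, so promoters were read next. The 250 bases before the annotated starts were taken from RefSeq's promoter table (GRCh38.p14), which held 38 of the 43 members. ACAT2, FDFT1, SQLE, ABCG1 and FASN had no entry there. Where several starts are listed, the first was taken. NF-Y, a factor known to work with SREBP at sterol promoters, binds CCAAT, and the letters CCAAT on either strand were in 8 of 9 sterol branch windows (88.9%). They were in 4 of 7 mevalonate windows, 4 of 11 fatty acid windows and 52.6% of all members, against 33% of 27305 gene promoters in the table and 35.3% of the 9873 found among the genes of the limma fit. The core TCACNCCAC of the sterol regulatory element, which SREBP binds, was in 1 of 38 member windows, that of SREBF2, and in 0.875% of all. The Sp1 letters GGGCGG were in 86.8% of members, 42.3% of all and 65.8% of the genes of the fit, and the E-box CACGTG in 13.2%, 6.49% and 9.03%. CACNCCAC, which lies within the longer core, was in 13.2%, 4.72% and 4.66%. These matches are a description of letters and not of binding. Matches were also in genes that were not clearly higher with DACH1 labelled serum. FDPS held 3 at 1.12-fold. MYLIP (1.25-fold lower) and ELOVL5 (1.01-fold lower) held 2 each, as many as HMGCS1 and DHCR7. HSD17B7 and TM7SF2, both lower with DACH1, held 1 each. The 5 windows printed first are only some of those holding at least 2 CCAAT matches, in genes higher with DACH1 labelled serum. MVK, MVD, FDPS, STARD4, SCD and ACLY also met this and are not printed. The window of IDI1, 1.46-fold higher on its brightest probe set, is shown because it holds 0, and that of SREBF2 for its sterol element.

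The windows lie at chr5:43313413-43313662, minus strand (HMGCS1); chr4:165327419-165327668, plus strand (MSMO1); chrX:152830813-152831062, plus strand (NSDHL); chrX:48521558-48521807, plus strand (EBP); chr11:71448394-71448643, minus strand (DHCR7); chr10:1056705-1056954, minus strand (IDI1) and chr22:41832855-41833104, plus strand (SREBF2). Each is printed 5′ to 3′ on the gene's strand up to the base before the start. Capitals mark CCAAT or its reverse complement ATTGG and, in SREBF2, also TCACCCCAC.
HMGCS1: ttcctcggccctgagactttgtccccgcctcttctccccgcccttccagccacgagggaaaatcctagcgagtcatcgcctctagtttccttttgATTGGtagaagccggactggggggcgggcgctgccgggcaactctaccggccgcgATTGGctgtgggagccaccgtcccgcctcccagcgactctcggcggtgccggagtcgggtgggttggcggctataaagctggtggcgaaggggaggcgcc
MSMO1: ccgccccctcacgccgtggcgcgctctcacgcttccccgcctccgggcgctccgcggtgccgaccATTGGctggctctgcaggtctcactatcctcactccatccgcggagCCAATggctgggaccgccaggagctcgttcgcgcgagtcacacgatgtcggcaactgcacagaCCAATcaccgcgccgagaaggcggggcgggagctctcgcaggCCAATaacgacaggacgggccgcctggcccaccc
NSDHL: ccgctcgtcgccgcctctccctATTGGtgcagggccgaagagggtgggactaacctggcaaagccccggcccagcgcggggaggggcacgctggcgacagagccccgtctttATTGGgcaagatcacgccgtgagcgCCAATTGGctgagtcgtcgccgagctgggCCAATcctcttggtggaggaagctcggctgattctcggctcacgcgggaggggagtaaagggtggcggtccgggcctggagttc
EBP: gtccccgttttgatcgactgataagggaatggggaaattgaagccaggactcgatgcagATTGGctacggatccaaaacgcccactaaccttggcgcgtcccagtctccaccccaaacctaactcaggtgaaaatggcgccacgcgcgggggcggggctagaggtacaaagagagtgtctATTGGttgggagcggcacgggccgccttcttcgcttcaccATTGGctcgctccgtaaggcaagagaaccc
DHCR7: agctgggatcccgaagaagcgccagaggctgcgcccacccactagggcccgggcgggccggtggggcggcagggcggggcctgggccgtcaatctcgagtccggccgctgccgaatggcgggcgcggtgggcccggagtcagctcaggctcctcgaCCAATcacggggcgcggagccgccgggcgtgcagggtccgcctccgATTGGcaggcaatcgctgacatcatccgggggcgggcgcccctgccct
IDI1: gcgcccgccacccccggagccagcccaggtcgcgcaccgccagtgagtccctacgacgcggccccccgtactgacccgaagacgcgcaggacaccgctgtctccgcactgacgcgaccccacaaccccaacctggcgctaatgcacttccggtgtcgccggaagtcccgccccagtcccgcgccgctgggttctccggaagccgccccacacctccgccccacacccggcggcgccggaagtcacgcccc
SREBF2: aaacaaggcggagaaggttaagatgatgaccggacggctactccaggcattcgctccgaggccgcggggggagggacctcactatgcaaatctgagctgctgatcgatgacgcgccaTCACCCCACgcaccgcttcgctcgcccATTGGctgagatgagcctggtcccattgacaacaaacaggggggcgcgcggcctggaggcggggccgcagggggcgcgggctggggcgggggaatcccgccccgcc
In NSDHL a forward and a reverse match overlap. NSDHL held 5 matches of CCAAT, MSMO1 held 4, EBP 3, and HMGCS1 and DHCR7 2 each. In SREBF2 the sterol element began 133 bases and the reverse CCAAT 106 bases before the start.

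**Figure D2:**
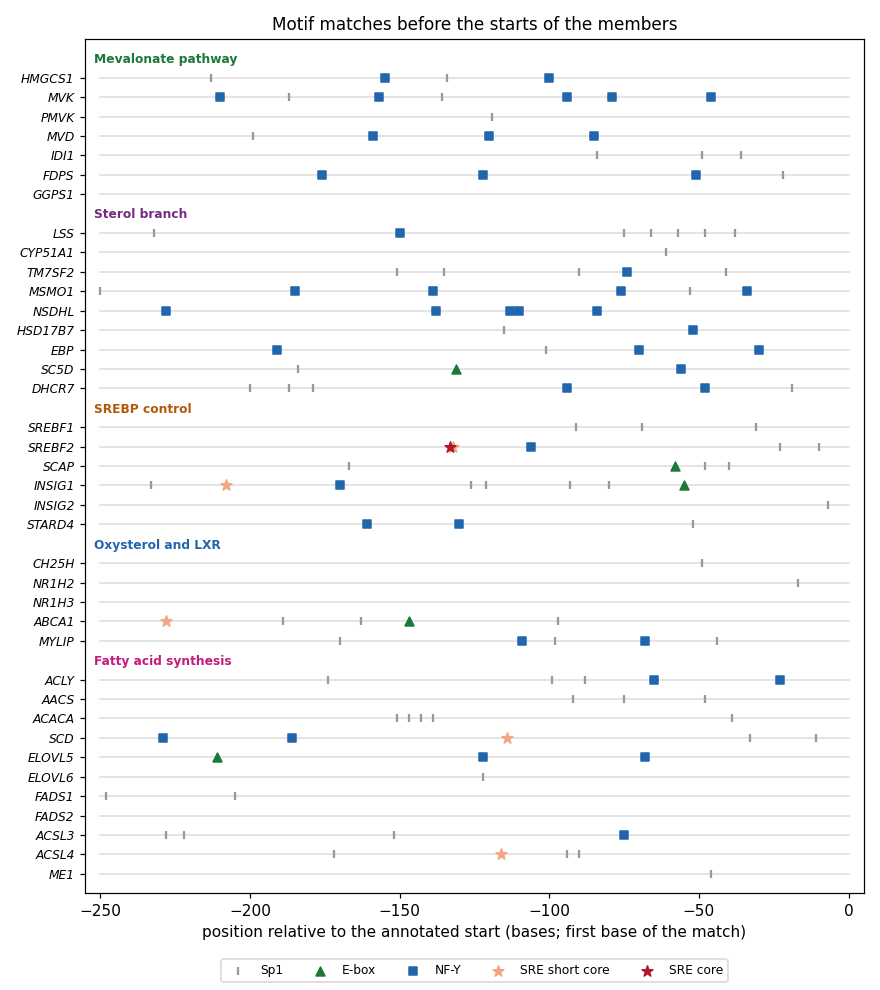
Motif matches in the 250 bases before the annotated start of the 38 members with a RefSeq promoter window. The horizontal axis gives the first base of each match relative to the start, rows are genes by role, squares mark NF-Y, stars the sterol element cores, triangles the E-box and ticks Sp1; 8 of 9 sterol branch genes hold an NF-Y match.

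Among the control genes of SREBP, the probe sets of SREBF2, which encodes SREBP-2, disagreed in size. The brightest read 145.4 and 167.8 labelled serum (1.15-fold higher) and 161.5 and 146.9 labelled serum-free. The second read 90.1 and 153.3 (1.7-fold higher), then 122.5 and 127.4, and the third 29.7 and 53.2 (1.79-fold higher), then 50.8 and 39.1. On all 3 the silenced array labelled serum was the lowest and the induced one the highest, and how far SREBF2 differed rests on the probe set. SREBF1 read 96.3 and 95.9 labelled serum, and SCAP, the sterol sensor that escorts SREBP, 149.3 and 147.6. SREBF1 and SCAP thus lay at most 1.01-fold apart labelled serum. INSIG1, itself a known SREBP target, read 3979.3 and 4186 on its brightest probe set (1.05-fold), while its other 2 gave log2 differences of 0.60 and 0.37. STARD4, a sterol carrier protein gene and also a known SREBP-2 target, read 442.4 and 666.6 labelled serum (1.51-fold higher) and 406 and 362.4 labelled serum-free. INSIG2 was lower, at 222.2 and 169.2.

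The genes around oxysterols and LXR lay on the other side. CH25H, which makes 25-hydroxycholesterol, read 254 in silenced and 8.9 in induced cells labelled serum. On the arrays labelled serum-free it read 44.8 and 22.1. With the induced signal under the floor the difference labelled serum was at least 23.3-fold lower, and labelled serum-free it was 2.03-fold lower. CH25H was thus 2-fold lower with DACH1 in both media, as were 30 of 11475 genes compared in both. It has 1 probe set, and both of its signals labelled serum-free lie under the floor of 50 tried as an alternative.

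ABCA1, the cholesterol exporter and a known LXR target, read 1546.2 and 1007.5 labelled serum (1.53-fold lower) and 1158.2 and 1128.3 labelled serum-free. A second probe set of ABCA1 read 1736.9 and 947.4, then 1139 and 832.8. ABCA1 was thus lower with DACH1 on both of these probe sets labelled serum. Labelled serum-free the brightest was nearly level (1.03-fold lower) and the second 1.37-fold lower. The dim probe sets of ABCA1 varied in sign. MYLIP, the LXR-induced ligase that degrades lipoprotein receptors, read 83 and 66.6, then 32.2 and 21.2. NR1H3, which encodes LXR alpha, read 94.6 and 86.4, then 40.3 and 54.2. All 4 genes compared labelled serum were lower with DACH1, with a median of -0.47, while 49.2% of all genes were below 0, with a median of 0.01. ABCG1, another sterol exporter, was dim: it read 13.1, 11.4, 23.8 and 2.7 in the order silenced and induced labelled serum, then labelled serum-free. Its last pair was at least 2.18-fold lower.

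Fatty acid genes showed small differences with DACH1 labelled serum, with a median of 0.25 over 9 genes, the same as for housekeeping genes. SCD, the desaturase that makes oleate, read 1128.4 and 1649.6 (1.46-fold higher), and its other 3 probe sets gave log2 differences from 0.42 to 0.59. ACLY, which makes cytosolic acetyl-CoA from citrate, was 1.14-fold higher (its other probe sets gave log2 differences of 0.46 and 0.43), FASN, the fatty acid synthase, 1.22-fold and the elongase ELOVL6 1.19-fold. ACACA, the acetyl-CoA carboxylase, read 101.7 and 103.3. FADS2, a desaturase of polyunsaturated fatty acids, was 2.57-fold higher, but from 11.4 to 29.3, close to the floor. ACSL4, which activates arachidonate, was 1.53-fold lower (419.7 and 274.8), while its dimmer probe sets gave log2 differences of -0.50 and -0.004. AACS, which makes acetoacetyl-CoA from ketone bodies, was 1.27-fold higher, the elongase ELOVL5 read 2268 and 2242.7, and ME1, the malic enzyme, stayed at or under 11.5 on every array.

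Among pathway genes outside the 43, LPIN1 and ACSL1 were the only ones past 2-fold in this pair, and both are named after their values were seen. LPIN1, a phosphatidate phosphatase gene and known SREBP target, read 492.2 and 1414.9 labelled serum (2.87-fold higher) and 545.8 and 507.9 labelled serum-free. ACSL1, a long-chain acyl-CoA synthetase gene, read 2077.4 and 718.2 (2.89-fold lower), then 319 and 343.8. Of 17 other fatty acid genes compared, 12 were above 0. Of 18 other genes of sterol handling, a mixed list that goes beyond uptake, storage and transport, 4 were above 0 and none of them reached 2-fold.

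**Figure D3:**
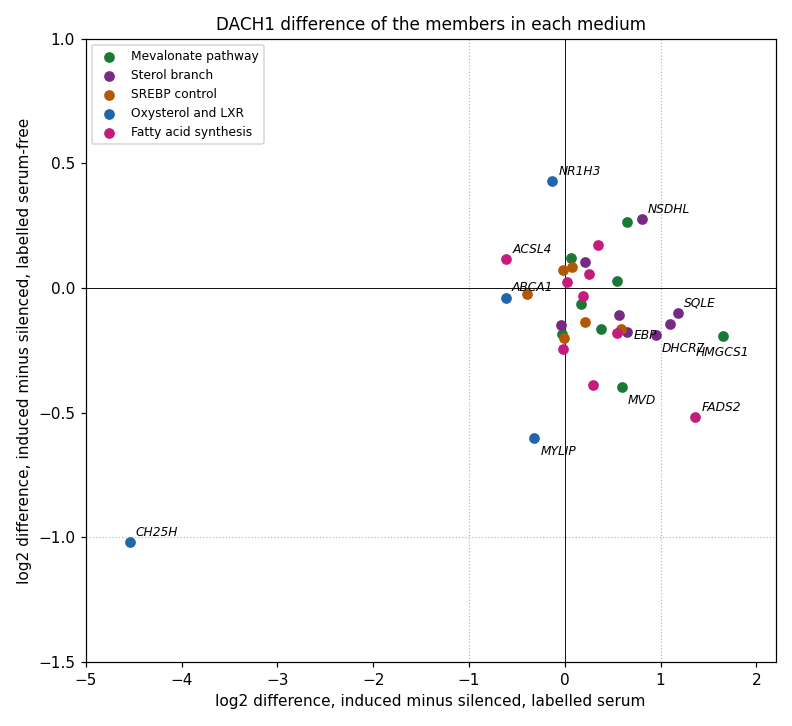
Log2 difference of induced minus silenced DACH1 for the 35 members compared in both media, labelled serum on the horizontal and labelled serum-free on the vertical axis, which has a shorter range; colours give the role and dotted lines 2-fold. Most sterol genes lie to the right of 0 and just below it, and CH25H lies lowest at -4.54 and -1.02, the first of these a bound.

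In the medium labelled serum-free the same comparison gave smaller values. Of 36 members 0 were 2-fold higher, against 1.02% of all genes, and 2 were lower, CH25H and ABCG1, against 2.72%. ABCG1 (23.8 and 2.7) was compared only because its silenced array reached 17.2. The 16 sterol synthesis genes had a median of -0.13 with 5 above 0, and 11 below 0, where all genes had a median of -0.002. NSDHL (1.21-fold) and ACAT2 (1.20-fold) were the sterol genes furthest above 0 (a second NSDHL probe set was at -0.09), and MVD, from 58.5 to 44.4, the one furthest below. FASN was 1.31-fold lower, FADS2 1.43-fold and MYLIP 1.52-fold, and mitosis genes had a median of -0.20.

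Set side by side, the log2 difference for DACH1 labelled serum-free was below that labelled serum in 15 of 16 sterol synthesis genes, with a median of -0.53 for the difference of the differences. Over all 12103 genes it was below in 51.3%, with a median of -0.01. PMVK was the exception, at 0.05. A log2 value of -1 or lower was reached by 5 of 35 members, FADS2, HMGCS1, SQLE, EBP and DHCR7, against 4.76% of all genes. CH25H was the 1 member at 1 or higher, against 5.4%, at 3.52 or more, since its induced signal labelled serum was under the floor. Mitosis genes were below 0 in 10 of 10 cases (median -0.59) and housekeeping genes in 9 of 10 (median -0.24). The induced array labelled serum was the highest of the 4 for 9 of 16 sterol synthesis genes (56.2%) and for 24.3% of all genes.

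A limma model with terms for medium and DACH1 state called 0 of 35 members and 0 of 12103 genes (0%) for DACH1 at an adjusted p of 0.05. An unadjusted p under 0.05 was reached by 1 member and by 4.83% of genes. That member was CH25H, at a log2 difference of -2.78 with that signal set to the floor (SE 0.91, limma adjusted p 0.931, lower in 2 of 2 induced arrays). HMGCS1 had 0.73 (SE 0.50, adjusted p 0.931 in limma) and was higher in 1 of 2 induced arrays. The fit has 1 residual degree of freedom. Its error rests on how far the DACH1 difference of a gene changes between the 2 media, moderated over all genes. Genes that differ with DACH1 in only 1 medium therefore have large errors in it. The labels name no repeat cultures, and the p-values therefore reflect only how these arrays vary, which may be technical.

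The second comparison asked how the medium changed expression. Of the fatty acid genes 3 of 9 rose in the medium labelled serum-free, and of the SREBP control genes 2 of 6. None of the 8 mevalonate genes passed in limma, where 2 had an unadjusted p under 0.05 on each side, but 4 of the 8 passed with a floor of 50. In limma, 6 of 35 members rose (17.1%) and 2 fell (5.71%), against 15.4% and 12.7% of all genes. The share that rose was thus close to the background. An unadjusted p under 0.05 was reached by 9 members on the higher and 6 on the lower side, and by 45.7% of all genes. Those that rose were INSIG2, SCD, AACS, LSS, ACACA and SREBF1, and those that fell were MYLIP and ELOVL6. With no filter on low signals none of the 8 passed, with adjusted p-values from 0.109 to 0.237 in limma.

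INSIG2, the endoplasmic reticulum anchor of SCAP whose transcript is known to follow signals other than SREBP, read 222.2 and 169.2 in silenced and induced cells labelled serum. Labelled serum-free it read 1355.2 and 1331.7. INSIG2 thus rose 6.93-fold (log2 difference 2.79, SE 0.20, limma adjusted p 0.0167). INSIG1, its paralogue, read 3979.3 and 4186 against 2626.9 and 2785.6, a log2 difference of -0.59 that did not pass (adjusted p 0.0771 in limma). The paralogues thus had opposite signs in both states.

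SREBF1 read 96.3 and 95.9 labelled serum against 206 and 179.3 labelled serum-free and rose 2-fold (SE 0.18 on the log2 scale, limma adjusted p 0.0329). SREBF2 had a log2 difference of -0.02 on its brightest probe set, where its pairs had opposite signs. Its other probe sets also did, at 0.44 and 0.77 in silenced cells and -0.27 and -0.44 in induced cells. SCAP read 149.3 and 147.6 against 220.6 and 231.9, 1.52-fold higher without passing (adjusted p 0.0748 in limma). The dim second probe set of SREBF1 read 30.6 on the induced array labelled serum-free and under 10 on the others. Averaged over both probe sets, SREBF1 no longer passed (adjusted p 0.0549 in limma).

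Of 9 fatty acid genes in the fit, 3 rose and 1 fell. SCD read 1128.4 and 1649.6 labelled serum and 4752.5 and 4194.7 labelled serum-free, and rose 3.27-fold (log2 difference 1.71, SE 0.26, limma adjusted p 0.0251). Its other 3 probe sets were 5.63-fold to 6.27-fold higher in silenced and 3.56-fold to 4.10-fold higher in induced cells, so the brightest gave the smallest value. AACS read 97.7 and 124.4 against 263.6 and 297.3 and rose 2.54-fold (adjusted p 0.0225 in limma). ACACA, which makes malonyl-CoA, the committed step of fatty acid synthesis, read 101.7 and 103.3 against 207.8 and 211.4 and rose 2.04-fold (adjusted p 0.0302 in limma). A dim second probe set of ACACA, from 27.9 to 37.5, did not follow, and with the mean of both the adjusted p was 0.098 in limma.

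ELOVL6, which elongates palmitate, went against SCD: it read 441.6 and 526 labelled serum and 253.6 and 263.9 labelled serum-free and fell 1.86-fold (adjusted p 0.0387 in limma). The mean over its 3 probe sets gave an adjusted p of 0.056 in limma, and no floor 0.0548. FASN read 87.6 and 107.2 against 176.7 and 134.9, and ACLY 1728.7 and 1976.1 against 2563.6 and 2511.3. The other ACLY probe sets gave 0.90 and 1.01 in silenced and 0.37 and 0.50 in induced cells. Both genes were higher labelled serum-free in each state, at log2 differences of 0.67 and 0.46 that did not pass (adjusted p 0.115 and 0.139 in limma). FADS2 read 11.4 and 29.3 against 49 and 34.2, with a log2 difference of 1.16 and an SE of 0.51. ELOVL5 had -0.30 and ACSL4 -0.35, neither passing, and the dimmer probe sets of ACSL4 were higher labelled serum-free in each state.

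Sterol synthesis was mixed, with 7 of 16 genes above 0 and a median of -0.08, against 0.02 for all genes. LSS read 340.7 and 395.7 labelled serum and 777 and 835.3 labelled serum-free, and rose 2.19-fold (log2 difference 1.13, SE 0.18, limma adjusted p 0.0275). Its probe sets disagreed, since 1 of the 2 dimmer ones went from 65.8 and 68.5 to 19 and 22. Averaged over the 3, the log2 difference of LSS was 0.06 (adjusted p 0.789 in limma). The kinases PMVK (0.74, adjusted p 0.0512 in limma) and MVK (0.64) were on the higher side, and IDI1 (-0.83), GGPS1 (-0.61) and FDPS (-0.52) on the lower side, all without passing. The dim probe sets of IDI1 went the other way, 1 of them from 39.8 and 33.8 to 76.4 and 62.7.

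The sterol genes stood differently between media in the 2 DACH1 states, a difference that was not tested. In silenced cells 10 of 17 were above 0, with a median of 0.06. In induced cells 3 of 16 were above 0, with a median of -0.39. EBP and DHCR7 were 2.11-fold and 2.09-fold higher in silenced cells and 1.13-fold and 1.05-fold lower in induced cells. HMGCS1 was at 253.2 and 243.6 in silenced cells and 3.73-fold lower in induced cells, and MSMO1 was 1.16-fold and 2.06-fold lower. These are differences of the same 4 arrays as the DACH1 pairs, so they hold no further evidence. TM7SF2 was 2.13-fold lower in silenced cells, from 35.2 to 16.5, and was not compared in induced cells.

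Counted at 2-fold, 10 of 37 members were higher in silenced cells (27%), against 15.3% of all genes, and 4 were lower (10.8%), against 12.2%. In induced cells 6 of 35 were higher (17.1%), against 14%, and 4 lower (11.4%), against 10.1%. FADS2 (higher) and TM7SF2 (lower) in silenced cells, and CH25H (higher) in induced cells, reached 17.2 on only 1 array of the pair. In both states 5 of 35 members were 2-fold higher, which were LSS, INSIG2, AACS, ACACA and SCD, and 1 lower, MYLIP. Over all genes 1121 of 11903 were higher in both and 831 lower.

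**Figure D4:**
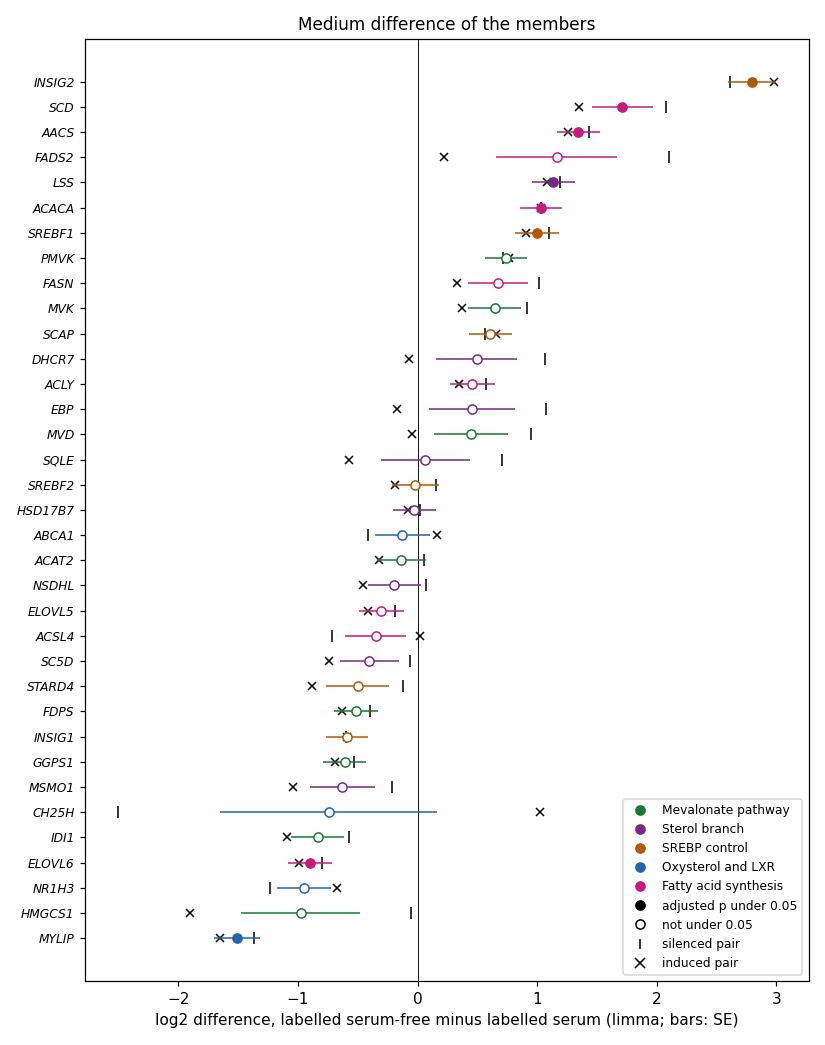
Log2 difference labelled serum-free minus labelled serum (horizontal axis) for the 35 members in the limma fit, with bars of 1 SE and colours for the role; filled points passed an adjusted p of 0.05. Vertical ticks and crosses give the silenced and the induced pair. INSIG2 lies highest at 2.79 and MYLIP lowest at -1.51, and the pairs of HMGCS1, EBP and DHCR7 lie far apart.

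All 4 genes of the LXR arm in the fit were below 0, as were 48.9% of all genes. MYLIP was the 1 of them that fell (25%, against 12.7% of all genes). In the induced pair 2 of the 4 were above 0. ABCG1, not in the fit, was 1.82-fold higher in silenced cells, from 13.1 to 23.8. MYLIP read 83 and 66.6 labelled serum against 32.2 and 21.2 and fell 2.85-fold, by 1.51 on the log2 scale (SE 0.19, adjusted p 0.0213 in limma). A second probe set of MYLIP, at 89.2 and 73.4 against 26.8 and 21.2, gave the same order. NR1H3 read 94.6 and 86.4 against 40.3 and 54.2 and just missed the threshold (log2 difference -0.95, adjusted p 0.0501 in limma). ABCA1 had -0.13, with pairs of opposite signs (-0.42 in silenced and 0.16 in induced cells). CH25H had -0.74, and its pairs also had opposite signs: it was 5.67-fold lower in silenced and at least 2.03-fold higher in induced cells.

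The other genes of these pathways were read from lists set by role. Of 19 other genes of sterol handling in the limma fit, 7 rose (36.8%, against 15.4% of all genes) and 2 fell (10.5%, against 12.7%). This mixed list holds genes of uptake, storage and transport beside enzymes such as ACAT1, CYP27A1 and CYP7B1. STARD5, a sterol carrier, rose 5.28-fold, LIPA, the lysosomal cholesteryl ester hydrolase, 4.39-fold and SCARB1, a lipoprotein receptor, 3.23-fold. SOAT2, which esterifies cholesterol, read 0.7 and 3.7 labelled serum, below the floor, and 59.6 and 63 labelled serum-free, at least 5.47-fold higher in silenced and 5.78-fold in induced cells. NPC1, which moves cholesterol out of lysosomes, fell 2.80-fold, from 2564 and 2214.8 to 799.3 and 907, and LPCAT3, a phospholipid enzyme and known LXR target, fell 2.50-fold (adjusted p 0.0227 and 0.0302 in limma).

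Of 16 other fatty acid genes 4 rose (25%) and 3 fell (18.8%), against 15.4% and 12.7% of all genes. SCD5, a paralogue of SCD, read 276.8 and 234 labelled serum and 737.4 and 714.3 labelled serum-free and rose 2.85-fold. The elongases ELOVL4 and ELOVL7 fell 4.02-fold and 3.72-fold, and MID1IP1, which activates acetyl-CoA carboxylase, fell 1.84-fold. ACSL1 was 3.69-fold lower but did not pass (adjusted p 0.0506 in limma). Of 8 genes of SREBP processing 1 rose (12.5%, near the background of 15.4%) and 2 fell (25%, against 12.7%). MBTPS1, the site-1 protease that cuts SREBP, rose 2.59-fold, while PAQR3, a Golgi anchor of SCAP, fell 2.03-fold (adjusted p 0.0219 and 0.0337 in limma).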

How the data were processed

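Total RNA from 4 cultures was labelled and hybridised to Affymetrix arrays. Each deposited value is the linear signal intensity of a probe set, from MAS5 per the submitters' processing notes, with its version and target not given in the sources used here. Trimmed means of the arrays agree (99.63 to 99.65), so 1 scaling factor per array was applied. MAS5 subtracts background, which makes low signals noisy.

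Of 54613 probe sets, 41091 name 1 gene in GEO's platform annotation, 1801 several, and 11721 are unnamed here; symbols were updated through Entrez identifiers for 99.9%. A gene's brightest probe set represents it. Signals under the 40th percentile (10.9) were set to it before log2. A pair of arrays compared genes with 1 array at the median (17.2) or above, the limma fit those with 2. A fold against a floored signal is written "at least". The fit (lmFit, eBayes) had DACH1 state and medium as terms, with Benjamini-Hochberg adjustment over 12103 genes. It was also run on simulated data with additive effects only. That run cannot show how the fit handles a DACH1 difference that varies with the medium. Differences run induced minus silenced and serum-free minus serum. The members, lists and tests were chosen with earlier results of these data known. All members are named; of each further list, up to 4 genes at 2-fold per factor in limma and the called genes of a direction with at most 3. The fits ran in limma 3.58.1 (R 4.3.3), with numpy 2.4.6, pandas 2.3.3 and matplotlib 3.10.9 under Python 3.11.15. The alternatives tried are given with their effects in the closing section.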

Additional observations from a re-analysis of the deposited data

Results flagged for a closer look

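For 4 members the DACH1 difference was at least 2-fold in 1 medium and on the other side of 0 in the other. The log2 difference labelled serum-free minus that labelled serum was -1.84 for HMGCS1 (1.65 and -0.19), -1.28 for SQLE (1.18 and -0.10), -1.25 for EBP (1.10 and -0.14) and -1.88 for FADS2 (1.36 and -0.52). For 3 members the medium difference was so split between the DACH1 states. Induced minus silenced, it was -1.25 for EBP, -1.14 for DHCR7 (1.06 and -0.08) and at least 3.52 for CH25H (-2.50 and at least 1.02, since 1 of its signals was under the floor). EBP appears under both because the 2 contrasts use the same 4 arrays. With 1 array per condition these differences were not tested.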

How the results depend on the processing

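Each array is its own condition, so the precision of every value is limited by their number, and low signals by the background subtraction. No paired analysis was possible because each condition has 1 array and the labels carry no replicate numbers.

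The count of members called in limma for medium, 6 higher and 2 lower, became 0 and 0 with no filter. The lower count was 4 with quantile normalization, a pseudocount equal to the floor, a floor of 50 or every array above the median, 1 with no floor and 7 with a trend in the variance prior. For DACH1 it was 0 in each direction under every setting with a test. Uncalled for medium, 8 members passed in limma under at least 1 setting: PMVK, IDI1, NR1H3, INSIG1, GGPS1, SCAP, MVK and FDPS. With a floor of 50, 4 of 8 mevalonate genes did, PMVK (adjusted p 0.0173), IDI1 (0.0231), GGPS1 (0.0304) and MVK (0.0484).

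At 2-fold labelled serum, the 4 members higher with DACH1 became 2 with the mean of all probe sets. The 2 lower became 0 with every array above the median and 1 with quantile normalization, a pseudocount, a floor of 50 or no _x_at and _s_at probe sets. Labelled serum-free, the 2 lower became 0 with quantile normalization, a floor of 50 or every array above the median, and 1 with a pseudocount, the mean of all probe sets or no _x_at and _s_at probe sets.

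For medium in silenced cells, the 10 higher became 6 with the mean of all probe sets and 5 without _x_at and _s_at probe sets. The 4 lower became 1 with a floor of 50 and 2 with every array above the median or without _x_at and _s_at probe sets. In induced cells the 4 lower became 2 with the mean of all probe sets. Without _x_at and _s_at probe sets the members' median for medium moved from -0.08 to -0.38 in induced cells and from -0.03 to -0.30 in limma. The cause was not tested, except that stricter settings leave fewer genes.

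Leaving out each array, which leaves 1 pair and no test, gave a members' median for DACH1 between -0.109 and 0.216, the lower value without either array labelled serum. IDI1 reversed: for medium in induced cells its log2 difference was 0.019 with the mean of all probe sets and 1.41 without _x_at and _s_at probe sets, where limma gave 1.63. For DACH1 the limma value of IDI1 also changed sign, from -0.333 to 0.289 over the settings, and passed in none. For sterol synthesis genes with DACH1 labelled serum, 14 of 17 above 0 held with quantile normalization. In the 100 bases before the start, 0% of members held TCACNCCAC (0.344% of all promoters) and 39.5% held CCAAT (18.7% of all and 21.5% of the genes of the fit).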
